A study of Mus musculus with 9 samples.

Results

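Double-knockout testes lacking Gm1142 and Gm4779 were compared with testes labelled Gm1142 knockout, gene by gene, at postnatal day 7 in the mouse. The comparison rests on 6 of the 9 libraries, 3 per group, and the 3 wild-type (WT) libraries serve as the level against which both groups were placed. The titles and the design give the genotypes as Gm1142-/-, as Gm1142-/- with Gm4779-/-, and as normal wild type, so that absence of Gm1142 is, by label, shared by both compared groups and absence of Gm4779 is what separates them. The tissue of all groups was whole testis, from which polyadenylated RNA was enriched with oligo(dT) beads. Strain, allele design, litter, batch and the number of animals per library are not given in the sources used here, and the replicate numbers come without a stated pairing. Nothing says that the libraries of a group came from separate animals, so the spread behind each p-value is that of these samples alone and may be technical.

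At postnatal day 7 the seminiferous cords of a mouse testis contain spermatogonia, the mitotic germ cells that start spermatogenesis, among proliferating Sertoli cells, the somatic cells that support them. Leydig cells, which make androgens, peritubular myoid cells, vessels and macrophages lie between the cords, and the first germ cells are about to enter meiosis. In bulk RNA of such a tissue, fewer cells of a type and less RNA per cell cannot be told apart.

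Gm1142 (symbol 8030474K03Rik) and Gm4779 are protein-coding neighbours on the X chromosome, transcribed away from each other. The bases between their starts are shown because both genes, one on either side of them, had no reads in the double knockout. In RefSeq GRCm38.p6 they lie at chrX:101794446-101794655, 210 bases on the plus strand. Positions describe the reference only, since the submitters counted on mm39. Capitals mark TCTCGCGAGA, the middle 10 bases of the longest run that reads the same on both strands (16 bases), and a CCAAT motif on each strand (as ATTGG on the printed one).

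between Gm4779 and Gm1142: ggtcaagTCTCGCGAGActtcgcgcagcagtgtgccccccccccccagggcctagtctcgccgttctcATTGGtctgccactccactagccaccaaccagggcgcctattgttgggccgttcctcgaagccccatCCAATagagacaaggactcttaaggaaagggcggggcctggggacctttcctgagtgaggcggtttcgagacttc

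Among 32851 RefSeq promoter windows of the mouse, 0.466% contained TCTCGCGAGA and 37.4% contained CCAAT on either strand. A match is a description of the letters and not of a bound site.

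The targeted genes were read first. Gm1142 had 0 counts in each of the 3 double-knockout libraries and 65, 46 and 50 counts in the libraries labelled Gm1142 knockout, against 56, 50 and 41 in WT. Gm4779 had 0 counts in each double-knockout library, 88, 61 and 59 in the libraries labelled Gm1142 knockout and 42, 48 and 53 in WT. The libraries labelled Gm1142 knockout were at least 72.0-fold above the double knockout for Gm1142 and at least 93.1-fold for Gm4779, where 3 counts summed over a group (0.162 CPM, counts scaled to library size) served as the floor, which covers counting error only. Whole-gene counts miss small deletions and frameshifts, so the label of the single knockout was not checked by these counts. All directions below are relative to libraries known by their label.

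The double-knockout libraries totalled 4370124 to 8359594 counts, replicate 2 being the deepest, those labelled Gm1142 knockout 4597447 to 5243756 and WT 4514237 to 5091624. Mitochondrially encoded genes took 27.1% to 32.9% of the counts in the double knockout, 32.5% to 38.9% in the labelled single knockout and 29.4% to 32.7% in WT. Replicate 2 of the labelled single knockout had the highest share and also the lowest scaling factor (0.856). The median Spearman correlation of a library with the WT libraries, across genes, was 0.922 to 0.942 in the labelled single knockout and 0.960 to 0.968 in the double knockout. No 2 of the 9 libraries held identical counts. Summed markers of Sertoli, Leydig and germ cells were above 0 in each library, which sums over many genes could hardly fail to be. These sums are therefore no check of tissue content.

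Of 17251 genes with enough counts, 3301 differed between the double knockout and the libraries labelled Gm1142 knockout at an adjusted p under 0.05 (edgeR quasi-likelihood test), 1565 higher and 1736 lower in the double knockout. These genes are called below. They made up 19.14% of all genes tested, 9.07% as higher and 10.1% as lower. The difference reached 2-fold in 1128 of them, and in 3124 the 3 double-knockout libraries did not overlap the 3 labelled single-knockout libraries in CPM (18.1% of genes tested). Called or not, 5757 genes (33.4% of genes tested) did not overlap in this way, so lack of overlap was common beyond the called genes.

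A called gene was placed at the WT level in the double knockout when 4 conditions held. It was called between the knockout groups, it was not called against WT, the 95% interval of its difference from WT lay within 2-fold, and that difference was under 0.5 of the difference between the knockout groups. By this rule the double knockout sat at the WT level for 2364 genes, 1141 higher and 1223 lower than in the libraries labelled Gm1142 knockout, or 71.6% of called genes (13.7% of all genes tested). The mirrored rule placed the labelled single knockout at the WT level for 290 genes, 155 higher and 135 lower in the double knockout, or 8.79% of called genes (1.68% of all genes tested). It sets no condition on the double knockout against WT, and 2 of the 290 were called there while 288 were not. The number called was 2128 without double-knockout 2, of which 2031 were among the 3301. The mirrored class was more sensitive, with 108 genes without double-knockout 2, 134 without replicate 3 and 152 without replicate 2 of the labelled single knockout. The 2 classes need WT, which both other groups are set against, so they describe the same 9 libraries and are no independent support for each other.

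In the class at the WT level the median size of the log2 difference was 0.75 between the knockout groups and 0.12 between the double knockout and WT. In the mirrored class the medians were 0.69 and 0.45, with 0.20 between the labelled single knockout and WT. Each rule bounds the difference from WT, so its small median follows from the selection and is no result of its own. Over all genes tested the medians were 0.37 between the knockout groups and 0.20 between the double knockout and WT. Between the labelled single knockout and WT the median over all genes was 0.36. Of the remaining genes, 551 had an interval against WT that reached beyond 2-fold; their median level was 4.60 CPM, compared with 45.3 CPM in the class at the WT level. Another 89 had an interval within 2-fold but lay between the groups or too far from WT. Of the called genes, 9 were also called between the double knockout and WT, where 16 genes (0.0927% of those tested) passed in all. The 95% intervals against WT printed below are not adjusted over genes, so that an interval without 0 is not a call. By group means, WT lay between the knockout groups for 2031 of the 3301 genes, the double knockout lay between the other groups for 1232 and the labelled single knockout for 38.

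**Figure D1:**
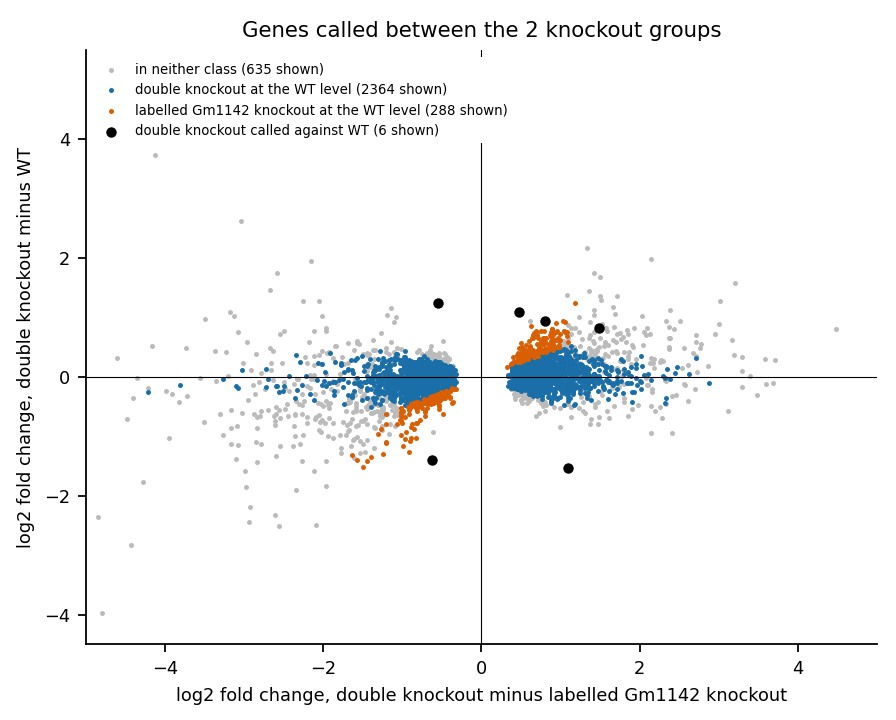
Each point is a gene called between the knockout groups, with its log2 fold change of the double knockout against the libraries labelled Gm1142 knockout on the x axis and against WT on the y axis. Of 3301 called genes, 3293 are shown and 8 lie beyond 5 on the x axis. The 2364 genes with the double knockout at the WT level lie along the horizontal line, as their rule requires. Of the 9 genes called against WT, 6 are drawn as large black points.

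The genes just at the borders show how narrow these were. Zfp72 was inside the class at the WT level with an upper interval bound of 0.9991 on the log2 scale, and Gdf15 was outside with 1.001. Sgms2 was called at an edgeR adjusted p of 0.04989, and Rdh14 was not at 0.05009.

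Among genes with the double knockout at the WT level, the largest increases by the naming rule included several nuclear proteins. Zkscan3, a zinc-finger transcription factor that represses autophagy genes, measured 306, 300.3 and 309.6 CPM in the double knockout, 80.6, 94.9 and 68.8 CPM in the labelled single knockout and 375, 353 and 365 CPM in WT. All 3 labelled single-knockout libraries lay far below the other 6. Between the knockout groups Zkscan3 changed by 1.91 on the log2 scale (SE 0.13; adjusted p = 2.57e-09, edgeR), and against WT it was -0.25 (95% interval -0.50 to -0.01). Nabp1, a single-stranded DNA binding protein of DNA repair, measured 68.7, 84.6 and 64.1 CPM in the double knockout, 9.71, 9.2 and 20.7 CPM in the labelled single knockout and 69.5, 60.1 and 79.9 CPM in WT. For Nabp1 the log2 fold change was 2.45 (SE 0.23; adjusted p = 4.35e-07, edgeR), and the double knockout overlapped WT. The zinc-finger and BTB genes Zkscan7 and Zbtb26 were higher by 1.89 and 1.87, the antiviral adaptor gene Mavs by 1.80 and the CREB-like gene Crebl2 by 2.32. Tmprss13, Tmem129, Zfp958 and Dcun1d2 followed with log2 fold changes of 2.02, 1.95, 1.79 and 1.72.

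On the lower side the largest decrease given by the naming rule was in Nck2, an adaptor that links activated tyrosine kinases to the actin cytoskeleton, which measured 14.2, 19.3 and 17.9 CPM in the double knockout, 123, 166 and 135 CPM in the labelled single knockout and 18.6, 14.4 and 14.9 CPM in WT. Nck2 had a log2 fold change of -3.03 (SE 0.17; adjusted p = 4.17e-10, edgeR), and against WT it was 0.11 (95% interval -0.27 to 0.49). The labelled single-knockout libraries formed a group of their own and the other 6 overlapped. Prrc1 measured 89.7, 93.9 and 97.8 CPM in the double knockout, 332, 425 and 357 CPM in the labelled single knockout and 92.3, 89.7 and 83.8 CPM in WT. This gave Prrc1 a log2 fold change of -1.98 (SE 0.12; adjusted p = 1.23e-09, edgeR), and against WT it was 0.08 (95% interval -0.18 to 0.34). Ssbp1, the single-stranded DNA binding protein of mitochondrial DNA replication, measured 45.3, 48.3 and 51.4 CPM in the double knockout, 175, 202 and 171 CPM in the labelled single knockout and 47.7, 60.7 and 48.5 CPM in WT, and the 3 labelled single-knockout libraries were again above all others. In Ssbp1 the double knockout differed from the labelled single knockout by -1.92 on the log2 scale (SE 0.14; adjusted p = 1.04e-08, edgeR). Bcl2l11, which encodes the pro-apoptotic protein Bim, had a log2 fold change of -1.88, from 60.0, 80.3 and 66.3 CPM in the labelled single knockout to 19.9, 16.8 and 19.7 CPM in the double knockout. The long noncoding gene Carmn (log2 fold change -2.35) and the microRNA gene Mir145a (-1.80), both expressed in smooth muscle, were lower too. Whether their reads come from the same transcript was not tested. Mir145a entered through the list of small nucleolar and microRNA genes, where 9 of 50 were called (18%, beside 19.14% of all genes). D7Bwg0826e, Asb14, Bri3, Ccdc15 and Cd72 ranged from -2.29 to -1.77. All 20 of these genes with the largest changes kept their call whichever 1 of the 9 libraries was left out. Tmprss13, Tmem129, Zkscan7, D7Bwg0826e, Bri3, Ccdc15 and Cd72 overlap a gene on the other strand and Zbtb26 overlaps Zbtb6 on its own strand, so their reads may be shared.

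**Figure D2:**
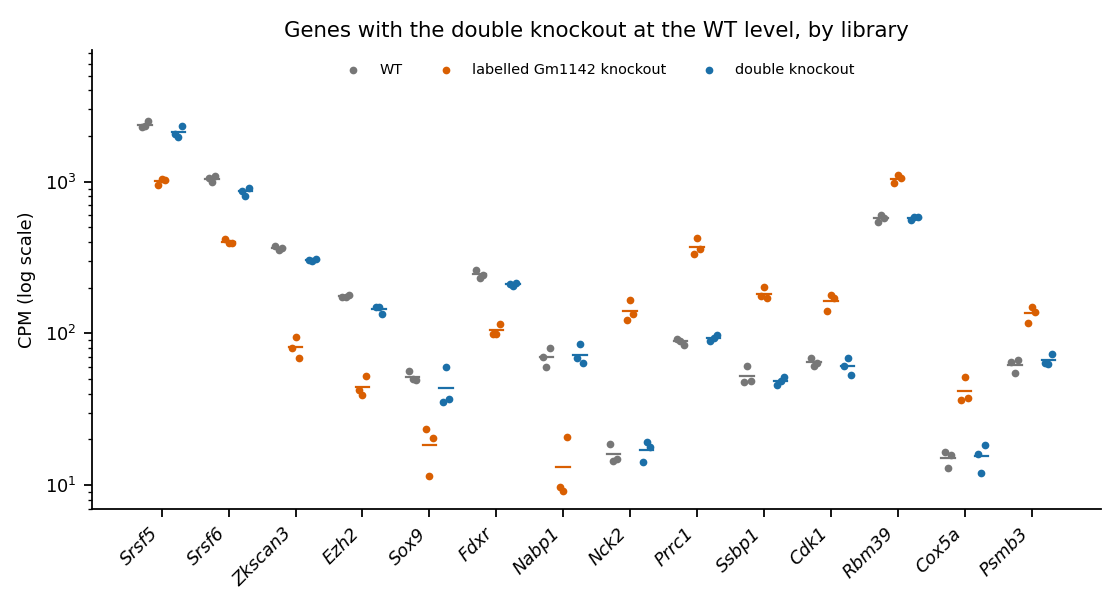
CPM on a log axis of 14 genes in each library, with a dash at each group mean. For each gene the 3 labelled single-knockout libraries stand on one side of the double knockout, and the double knockout falls near WT, as for Nck2 with 14.2 to 19.3 CPM in the double knockout and 14.4 to 18.6 CPM in WT.

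Splicing regulators, many of them abundant, were called in both directions. SR proteins and hnRNPs bind pre-mRNA and steer the choice of exons, and many regulate their own transcripts through unproductive splicing. Of 43 such genes tested, 11 were higher and 11 lower in the double knockout, or 51.2% called beside 19.14% of all genes, and the median of all 43 was 0.06, beside 0.03 over all genes. Srsf5, an SR protein, measured 2073, 1962 and 2318 CPM in the double knockout, 945, 1038 and 1028 CPM in the labelled single knockout and 2292, 2322 and 2527 CPM in WT, and Srsf6, another, measured 873, 799 and 912 CPM in the double knockout, 416, 394 and 391 CPM in the labelled single knockout and 1052, 989 and 1094 CPM in WT. The log2 fold change of Srsf5 was 1.08 (SE 0.10; adjusted p = 3.94e-07, edgeR), and for Srsf6 it was 1.10 (SE 0.10; adjusted p = 3.94e-07, edgeR). For both genes the labelled single-knockout libraries were all below the other 6. Pnisr (1.12), Rbm5 (0.73), Srrm2 (0.85), Rbm3 (0.85), Clk4 (0.84), Srsf2 (0.62), Luc7l (0.59) and Tra2a (0.42) were higher as well.

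The opposite set of 11 included Rbm39, a splicing cofactor, at 561, 581 and 589 CPM in the double knockout, 982, 1098 and 1053 CPM in the labelled single knockout and 539, 604 and 574 CPM in WT. Between the knockout groups Rbm39 changed by -0.86 on the log2 scale (SE 0.10; adjusted p = 8.37e-06, edgeR). Clk1, a kinase that phosphorylates SR proteins, measured 555, 531 and 592 CPM in the double knockout, 840.4, 1052 and 906 CPM in the labelled single knockout and 570.4, 621 and 642 CPM in WT, and Hnrnph3 measured 129, 134 and 121 CPM in the double knockout, 265, 305 and 269 CPM in the labelled single knockout and 158, 152 and 166 CPM in WT. Their log2 fold changes were -0.74 and -1.12. Luc7l3 (-1.04), Hnrnpm (-0.53), Hnrnpd (-0.49), Hnrnpr (-0.44), Srsf10 (-0.39), Hnrnpl (-0.35), Hnrnpa1 (-0.34) and Son (-0.33) were lower too. Of the 22 genes called, 20 fell in the class at the WT level, and Hnrnpa1 and Hnrnpr did not. Summed over the list, the double-knockout libraries reached 22470.5 to 23802 CPM, between the 19926 to 21933 CPM of the labelled single knockout and the 24232 to 25728 CPM of WT. Leaving out any 1 library left 10 to 12 members higher and 8 to 12 lower. The calls of Tra2a, Srsf2, Hnrnpa1, Hnrnpl and Hnrnpr were lost in 1 to 3 of the 9 leave-one-out fits, and that of Son in 7.

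Genes of Polycomb complexes and DNA methylation also differed in both directions. Polycomb group proteins keep developmental genes silent by modifying histone H3 and H2A, and TET and DNMT enzymes remove and add DNA methylation. Ezh2, the methyltransferase of Polycomb complex 2, measured 150.0, 149 and 135 CPM in the double knockout, 42.5, 39.1 and 52.2 CPM in the labelled single knockout and 175, 174 and 180.2 CPM in WT. For Ezh2 the log2 fold change was 1.69 (SE 0.13; adjusted p = 4.32e-08, edgeR), and against WT it was -0.29 (95% interval -0.55 to -0.03). Ring1, a ubiquitin ligase of Polycomb complex 1, measured 33.3, 34.4 and 34.9 CPM in the double knockout, 17.1, 17.4 and 14.1 CPM in the labelled single knockout and 38.1, 40.4 and 43.5 CPM in WT and was higher by 1.08. Tet1 (0.98), Dnmt3c (0.74), Dnmt3a (0.52) and Rbbp7 (0.48) were higher, while Tet2 (-0.60), Eed (-0.49) and Mtf2 (-0.48) were lower. In all, 6 of 26 genes tested were higher and 3 lower (34.6% called, beside 19.14% of all genes), with a median of 0.11. The number higher was 2 without double-knockout 2, 2 without replicate 2 of the labelled single knockout and 3 without its replicate 3. Of the genes named, Tet1 and Dnmt3a lost their call in 3 of the 9 leave-one-out fits, Rbbp7 in 4 and Dnmt3c in 8.

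Zinc-finger genes named Zfp include many DNA-binding proteins of the KRAB type, which silence retroelements. Of 361 tested, 87 were higher and 19 lower (29.4% called, beside 19.14% of all genes), and the median over the 361 was 0.42, beside 0.03 over all genes. Against WT their median was 0.05. Of the 87, 52 had the double knockout at the WT level, 6 had the labelled single knockout there, and 29 fell in neither class. Among all genes called as higher, 1141 of 1565 had the double knockout at the WT level. Zfp275 on the X chromosome measured 92, 103 and 78.4 CPM in the double knockout, 39.6, 33 and 42.4 CPM in the labelled single knockout and 98.2, 107 and 82.3 CPM in WT (log2 fold change 1.25), and Zfp60 measured 52.8, 68.6 and 74.7 CPM in the double knockout, 20.4, 28.4 and 30.9 CPM in the labelled single knockout and 68.5, 62.5 and 69.1 CPM in WT (1.30). Zfp280d and Zfp951 went the other way, by -1.03 and -1.28. Leaving out 1 library gave 45 to 83 higher, with 45 without double-knockout 2 and 57 without replicate 2 of the labelled single knockout. Many of these genes are similar in sequence, and how multi-mapping reads were counted is not given in the sources used here.

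Of 30 Sertoli-cell genes tested, 14 were higher in the double knockout and 1, Wt1 (-0.50), was lower (50% called, beside 19.14% of all genes), with a median of 0.45 against the labelled single knockout and -0.06 against WT. Sox9, the factor that drives Sertoli cell specification, measured 35.2, 59.8 and 36.9 CPM in the double knockout, 23.5, 11.5 and 20.5 CPM in the labelled single knockout and 56.1, 49.9 and 49.3 CPM in WT. Sox9 had a log2 fold change of 1.25 (SE 0.23; adjusted p = 0.000781, edgeR), and against WT it was -0.22 (95% interval -0.67 to 0.23). Its relative Sox8 measured 44.2, 47 and 33.5 CPM in the double knockout, 20.6, 17.4 and 19.2 CPM in the labelled single knockout and 52.3, 35.5 and 39.6 CPM in WT, and Cst9, a cystatin made by Sertoli cells, measured 73.1, 98.6 and 86.5 CPM in the double knockout, 48.4, 49.6 and 50.7 CPM in the labelled single knockout and 82.3, 96.6 and 70.8 CPM in WT. Sox8 and Cst9 were higher by 1.13 and 0.80. Espn, an actin-bundling protein of Sertoli cell junctions, was higher by 0.78, the tight-junction gene Cldn11 by 0.76 and Kitl, the ligand of the receptor Kit on spermatogonia, by 0.86. Inhbb, which encodes a subunit of activin and inhibin B, was higher by 0.61. Of the 14 higher genes, 13 had the double knockout at the WT level, all but Gata1 (1.89), and so did Wt1. Between 8 and 13 members were higher when 1 library was left out, 8 without double-knockout 2. Gata1 lost its call without double-knockout 2, Cldn11 without that library or replicate 2 of the labelled single knockout, and Inhbb in 4 of the 9 fits. In summed CPM the double knockout reached 3041 to 3912, the labelled single knockout 2719 to 3009 and WT 3324 to 3670.4.

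Of 19 Leydig-cell genes, 3 were higher and 2 lower (26.3% called, beside 19.14% of all genes), and the list's median was 0.13. Fdxr, the reductase that supplies electrons for steroid synthesis in mitochondria, measured 210.3, 206 and 215 CPM in the double knockout, 99.2, 99.7 and 115 CPM in the labelled single knockout and 263, 232 and 242 CPM in WT. This gave Fdxr a log2 fold change of 1.01 (SE 0.12; adjusted p = 6.24e-06, edgeR), and against WT it was -0.22 (95% interval -0.46 to 0.01). Hsd3b1, an enzyme of steroid synthesis, was higher by 0.59. Cyp17a1, which makes androgen precursors, measured 124, 23.4 and 119 CPM in the double knockout, 13.8, 39.1 and 7.67 CPM in the labelled single knockout and 165, 157 and 46.3 CPM in WT, so that double-knockout 2 lay among the labelled single-knockout libraries. Its log2 fold change of 2.15 was called by edgeR but not by DESeq2 or limma-voom. Akr1cl was lower (-0.62), and so was Dlk1, an imprinted gene of fetal and immature Leydig cells (-0.55). The calls of Hsd3b1 and Dlk1 were each lost in 3 of the 9 leave-one-out fits, and without replicate 1 of the labelled single knockout, double-knockout 2 or double-knockout 3 the list had 1 lower.

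Of 10 mitochondrially encoded mRNAs tested, 7 were lower and none higher (70% called, beside 19.14% of all genes), with a median of -0.42 against the labelled single knockout and -0.04 against WT. mt-Nd1, a subunit of respiratory complex I, measured 40253, 36419 and 45958 CPM in the double knockout, 54030.1, 75337 and 61929.6 CPM in the labelled single knockout and 37987, 45393 and 39783 CPM in WT. In mt-Nd1 the double knockout differed from the labelled single knockout by -0.64 on the log2 scale (SE 0.11; adjusted p = 0.000393, edgeR), and against WT it was -0.01 (95% interval -0.24 to 0.22). The highest of the 9 values was replicate 2 of the labelled single knockout, without which 5 members were lower. There were also 5 without double-knockout 1 or 2, and 4 when the compared groups were fitted alone. Removal of the GC and length trends left 5 lower with a median of -0.23, and mt-Nd6 lost its call there (edgeR adjusted p = 0.13). The values were -0.67 for mt-Nd2, -0.43 for mt-Nd5, -0.47 for mt-Nd6, -0.36 for mt-Nd4, -0.34 for mt-Co1 and -0.41 for mt-Cytb. The call of mt-Co1 was lost in 3 of the 9 leave-one-out fits and that of mt-Nd4 in 4. All 7 had the double knockout at the WT level.

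The other 3 of the 10, mt-Co3, mt-Nd3 and mt-Nd4l, were not called between the knockout groups, and all 3 were called between the double knockout and WT. mt-Nd3, another subunit of complex I, had 40.6 ± 13.7 CPM in the double knockout, 56.7 ± 4.59 CPM in the labelled single knockout and 0.550 ± 0.478 CPM in WT (SD, n = 3 each). Its log2 fold change against WT was 6.17 in the double knockout (edgeR adjusted p = 8.53e-09) and 6.66 in the labelled single knockout. mt-Co3 had 13.5 ± 2.92, 10.8 ± 4.51 and 0.458 ± 0.635 CPM in the same order of groups, and mt-Nd4l had 4.35 ± 2.71, 4.57 ± 1.83 and 0.201 ± 0.0125 CPM. Against WT the double knockout was higher by 4.78 for mt-Co3 and by 4.25 for mt-Nd4l. For all 3 genes the WT mean lay below the 0.574 to 0.646 CPM that 3 counts make in a WT library. The fold changes against WT therefore rest on very few WT counts, and their size is uncertain. In every group these genes lay far below mt-Nd1. mt-Nd5 and mt-Nd6 overlap on opposite strands, and nuclear copies of mitochondrial genes can share their reads.

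Of 50 nuclear genes of oxidative phosphorylation, 12 were lower and 3 higher (30% called, beside 19.14% of all genes), with a median of -0.19. Cox5a, a subunit of cytochrome c oxidase, measured 16.1, 12 and 18.3 CPM in the double knockout, 36.5, 51.6 and 37.7 CPM in the labelled single knockout and 16.5, 13 and 15.7 CPM in WT. The log2 fold change of Cox5a was -1.45 (SE 0.21; adjusted p = 8.23e-05, edgeR), and against WT it was 0.02 (95% interval -0.45 to 0.48). Atp5j2, of ATP synthase, measured 35, 30.7 and 36.9 CPM in the double knockout, 77.3, 90.3 and 83.1 CPM in the labelled single knockout and 32, 41.4 and 37.3 CPM in WT and Cox6c measured 115, 91.5 and 132 CPM in the double knockout, 202, 287 and 241 CPM in the labelled single knockout and 142, 139 and 150.3 CPM in WT. Their log2 fold changes were -1.29 and -1.11. Ndufs4 (-1.004), Atp5g3 (-0.995) and Ndufa5 (-0.96) were lower and Ndufb5 (0.64), Atp5d (0.64) and Ndufa6 (0.51) higher. The number higher was 0 without replicate 1 of the labelled single knockout and 1 without its replicate 3 or without double-knockout 1, and the calls of Ndufb5, Ndufa6, Atp5d and Ndufa5 were lost in 2, 4, 7 and 7 of the 9 leave-one-out fits. Genes for mitochondrial ribosomal proteins had 13 of 77 lower and 5 higher, led by Mrpl42 (-1.20) on one side and Mrps15 (0.97) on the other by p-value. That count is 23.4% of the list called, beside 19.14% of all genes. With 1 library left out, 2 to 4 were higher and 9 to 15 lower, with 2 higher without replicate 1 of the labelled single knockout or double-knockout 3.

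The proteasome, which degrades ubiquitin-tagged proteins, had 6 of 31 subunit genes lower and 1, Psmd8 (0.57), higher (22.6% called, beside 19.14% of all genes), with a median of -0.21. Psmb3 measured 64.1, 62.5 and 73.4 CPM in the double knockout, 117, 149.6 and 139 CPM in the labelled single knockout and 64.7, 55.2 and 66.8 CPM in WT, and its log2 fold change was -1.02. Psmd6 and Psmd13 of the regulatory particle were lower (-0.98 and -0.82). The summed level of the 31 genes did not overlap between the knockout groups, at 2129 to 2338 CPM in the double knockout and 2504 to 2739.8 CPM in the labelled single knockout, while WT lay at 1979 to 2045 CPM. Of 33 small-subunit ribosomal protein genes 7 were lower, among them Rps23 (-0.91), Rps12 (-0.88) and Rps18 (-0.76), and Rps10 was higher (0.54), or 24.2% called. Without double-knockout 2 there were 4 lower, and Rps10 lost its call in 4 of the 9 leave-one-out fits. Their summed level overlapped between the knockout groups, at 3769.9 to 4067 CPM in the double knockout and 3901 to 3975 CPM in the labelled single knockout. Their copies elsewhere in the genome make single-gene counts uncertain.

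Among abundant genes that the naming rule gave at the WT level, Gna12, a G protein subunit, measured 688, 577 and 769 CPM in the double knockout, 946, 1402 and 1035 CPM in the labelled single knockout and 816, 793 and 745 CPM in WT, with a log2 fold change of -0.73, and the 3 labelled single-knockout libraries were above the other 6. Etnk2, an ethanolamine kinase of phospholipid synthesis, was higher, at 497, 478 and 527 CPM in the double knockout, 244, 325 and 264 CPM in the labelled single knockout and 550.0, 580.1 and 369 CPM in WT, a log2 fold change of 0.85.

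Of 43 genes of the cell cycle and DNA replication tested, 4 were higher and 7 lower (25.6% called, beside 19.14% of all genes), with a median of 0.09. Cdk1, the cyclin-dependent kinase of mitotic entry, measured 60.8, 69.2 and 52.8 CPM in the double knockout, 140.4, 179 and 171 CPM in the labelled single knockout and 68.3, 60.9 and 64 CPM in WT. Between the knockout groups Cdk1 changed by -1.41 on the log2 scale (SE 0.14; adjusted p = 8.4e-07, edgeR), and against WT it was -0.07 (95% interval -0.37 to 0.22). Cdc25c, which activates Cdk1, was lower (-0.88), as were Cdt1 (-0.63), Aurkb (-0.52), Mcm7 (-0.43), Ccnb1 (-0.42) and Cdkn1b (-0.36). Plk1 (1.07), Bub1b (0.88), Mcm3 (0.81) and Cdc6 (0.77) were higher. The number lower was 3 without double-knockout 1 or 2 and 3 without replicate 2 or 3 of the labelled single knockout. The calls of Mcm7, Aurkb, Cdt1 and Cdkn1b were lost in 3 or 4 of the 9 leave-one-out fits, that of Cdc6 in 6 and that of Ccnb1 in 7. Among 25 targets of p53, 5 were higher, including Phlda3 (1.13), Gtse1 (0.9993) and Aen (0.99), and Gadd45a (-0.89) and Ei24 (-0.81) were lower, or 28% called. The number higher was 2 without double-knockout 2 or replicate 2 of the labelled single knockout and 3 without its replicate 3. Gadd45a lost its call in each of the 9 leave-one-out fits and Phlda3 in 4.

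The 28 genes of cholesterol synthesis, uptake and feedback had 3 higher and 4 lower (25% called, beside 19.14% of all genes). Hmgcs1, an early enzyme of the pathway, measured 92.2, 141 and 106 CPM in the double knockout, 63.9, 48.1 and 54.8 CPM in the labelled single knockout and 105, 94.6 and 78.2 CPM in WT and was higher by 1.03. Srebf1, Tm7sf2, Fdps and the feedback gene Insig1 were lower (-0.73, -0.76, -0.49 and -0.49). Without replicate 2 of the labelled single knockout 1 was higher, and the number lower was 2 without that library, its replicate 3 or double-knockout 2. Insig1 lost its call in 3 of the 9 leave-one-out fits and Fdps in 8. Of 24 genes of glycolysis and lactate transport 5 were higher, among them the hexokinase gene Hk2 (0.77) and the lactate transporters Slc16a1 (0.70) and Slc16a3 (0.76), and Pkm was lower (-0.49), or 25% called. The number higher was 3 without double-knockout 2, replicate 2 or 3 of the labelled single knockout, or replicate 1 or 2 of WT, and 8 without double-knockout 3. The call of Slc16a1 was lost in 5 of these fits. Of 32 chaperone genes 7 were higher, including Hsph1 (0.71), Calr (0.50), Hsp90b1 (0.48) and Hspa8 (0.45), and Dnaja1 was lower (-0.72), or 25% called. That 7 was 1 without replicate 3 of the labelled single knockout, 2 without its replicate 2 or without double-knockout 2, 4 without any 1 WT library, and reached 10 at most. It was also 4 with GC and length trends removed or with the compared groups fitted alone. Calr and Hsp90b1 lost their call in 3 of the 9 leave-one-out fits and Hspa8 in 7.

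Of 11 long noncoding RNAs 3 were higher and 4 lower (63.6% called, beside 19.14% of all genes). Their list was named nuclear-retained RNAs, but the place of each RNA in the cell was not checked. The 3 higher were Tug1, Gas5 and 2900097C17Rik (Norad), and 1 was higher without double-knockout 1 or with the compared groups fitted alone. The calls of 2900097C17Rik and Gas5 were lost in 3 and 4 of the 9 leave-one-out fits. Meg3, an imprinted noncoding RNA, measured 1806, 997 and 1291 CPM in the double knockout, 2268, 2473 and 2101 CPM in the labelled single knockout and 1748, 1592 and 1841 CPM in WT, and Rian, from the same imprinted cluster, measured 1106, 661 and 887 CPM in the double knockout, 1312, 1582 and 1347 CPM in the labelled single knockout and 1206, 1126 and 1233 CPM in WT. Their log2 fold changes were -0.74 and -0.68, and in double-knockout 2 both were lowest. Snhg14 (-1.15) and Kcnq1ot1 (-0.83) were lower as well. The linker histone gene Hist1h1c measured 103, 69.9 and 94.2 CPM in the double knockout, 212, 265 and 221 CPM in the labelled single knockout and 121, 123 and 134 CPM in WT, a log2 fold change of -1.39. Summed over the canonical histone genes, the double knockout had 244 to 249 CPM, below the 399 to 448 CPM of the labelled single knockout and the 329 to 358 CPM of WT. Hist1h1c made up most of the gap between the knockout groups. Without it the sums were 146 to 174 CPM in the double knockout, 178 to 209.6 CPM in the labelled single knockout and 208 to 224 CPM in WT. Of 13 canonical histone genes tested 2 were called (15.4%, beside 19.14% of all genes), and the other, Hist1h2be, was higher (2.41, lost in 3 of the 9 leave-one-out fits). The list's median was 0.04, and most histone mRNAs lack the poly(A) tail on which the libraries were selected.

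**Figure D3:**
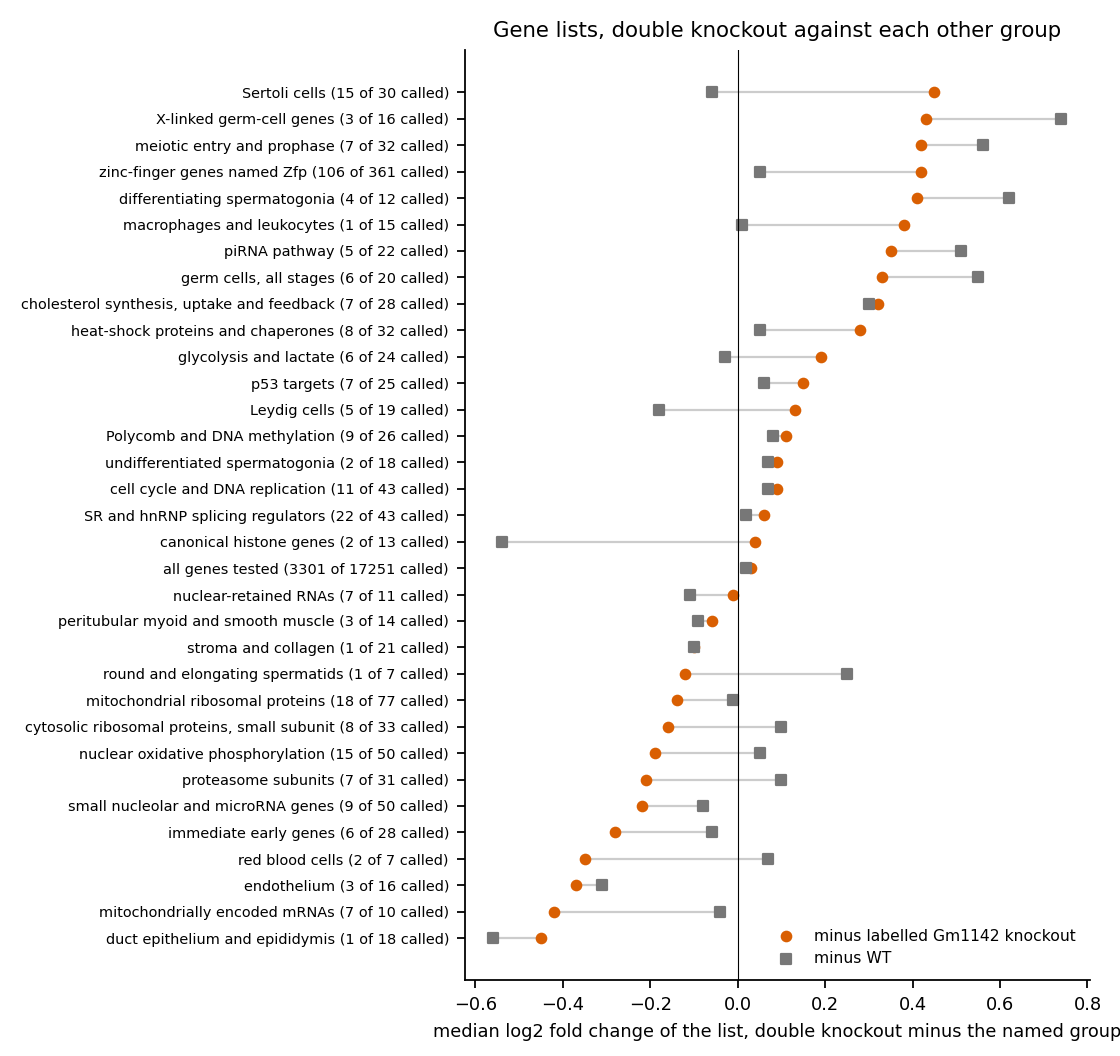
For each gene list, the circle gives the median log2 fold change of its tested members between the double knockout and the libraries labelled Gm1142 knockout, and the square gives that between the double knockout and WT. For Sertoli-cell genes the circle is at 0.45 and the square at -0.06, while for germ cells of all stages the circle is at 0.33 and the square at 0.55.

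Germ-cell genes are described next because few of those called had the double knockout at the WT level. Of 20 genes expressed across germ-cell stages, 6 were higher in the double knockout and none lower (30% called, beside 19.14% of all genes). Their median was 0.33 against the labelled single knockout, 0.55 against WT and 0.25 between the labelled single knockout and WT. None of the 6 had the double knockout at the WT level, and 4 had the labelled single knockout there. The double knockout enters both differences, which are given side by side and are not independent.

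Dazl, an RNA-binding protein that keeps germ cells able to enter meiosis, measured 305, 368 and 370.3 CPM in the double knockout, 138, 103 and 131 CPM in the labelled single knockout and 179, 226 and 181 CPM in WT. All 3 double-knockout libraries lay above all 6 others, and the labelled single knockout lay below WT. For Dazl the log2 fold change was 1.49 (SE 0.14; adjusted p = 3.94e-07, edgeR), and against WT it was 0.83 (95% interval 0.55 to 1.11). Ddx4, the germ-cell RNA helicase also known as Vasa, measured 66.4, 113 and 90.8 CPM in the double knockout, 56.3, 52.2 and 68.2 CPM in the labelled single knockout and 58.8, 65.2 and 69.8 CPM in WT, where double-knockout 1 overlapped the other groups. Ddx4 had a log2 fold change of 0.62 (SE 0.17; adjusted p = 0.0144, edgeR). Mael, a piRNA pathway protein, measured 46.7, 52.1 and 45.3 CPM in the double knockout, 31.3, 24.5 and 36.2 CPM in the labelled single knockout and 30.2, 29.2 and 32.7 CPM in WT, with a log2 fold change of 0.65 (SE 0.17; adjusted p = 0.0107, edgeR). Elavl2 (0.88), Tex101 (0.77) and Tuba3a (0.62) completed the 6. Mael lost its call without replicate 2 of the labelled single knockout and Ddx4 without that library or double-knockout 2, while Elavl2 and Tex101 lost it in 5 of the 9 leave-one-out fits and Tuba3a in 6.

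Without replicate 2 of the labelled single knockout, which had the lowest Dazl and Ddx4 of the 9 libraries, 1 of the 20 germ-cell genes was called, and without double-knockout 2 there were 2. Dazl kept its call whichever library was left out. With both of these libraries left out, 1 of the 20 was called and the median was 0.23. In summed CPM of the germ-cell list the double knockout stood at 892 to 1092, above 573 to 698 in the labelled single knockout and 586 to 668 in WT. Dazl is a large part of these sums. Its means were 348 CPM in the double knockout, 124 CPM in the labelled single knockout and 195 CPM in WT.

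Among genes of differentiating spermatogonia, 4 of 12 were higher (33.3% called, beside 19.14% of all genes) with a median of 0.41. Kit, the receptor that marks these cells, measured 48.6, 63.5 and 53.7 CPM in the double knockout, 34.6, 22.8 and 45.4 CPM in the labelled single knockout and 33.7, 29 and 34 CPM in WT. This gave Kit a log2 fold change of 0.69 (SE 0.20; adjusted p = 0.0182, edgeR), and its call was lost without double-knockout 2 or replicate 2 of the labelled single knockout. Dmrtb1, a transcription factor of the passage from mitosis to meiosis, measured 6.31, 8.57 and 10.9 CPM in the double knockout, 5.05, 1.53 and 2.77 CPM in the labelled single knockout and 2.87, 3.35 and 1.29 CPM in WT and was higher by 1.42. Prss50 rose from 0.583 CPM or less in the labelled single knockout, at most 3 counts per library, to 1.91, 2.48 and 4.98 CPM. In WT it measured 0.957, 2.37 and 0.431 CPM, which overlapped the double knockout. Its call was lost in 3 of the 9 leave-one-out fits. Dnmt3a (0.52) had the double knockout at the WT level. None of the 12 was called by edgeR without replicate 2 of the labelled single knockout. There was 1 without its replicate 3 or double-knockout 2, and there were 2 without double-knockout 3.

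Of 18 markers of undifferentiated spermatogonia, 2 were higher (11.1%, beside 19.14% called of all genes) and the median was 0.09. Lin28a, an RNA-binding protein of progenitor cells, measured 31.4, 39.6 and 32.4 CPM in the double knockout, 22.3, 9.46 and 21.5 CPM in the labelled single knockout and 14.7, 21.3 and 19.4 CPM in WT. In Lin28a the double knockout differed from the labelled single knockout by 0.94 on the log2 scale (SE 0.25; adjusted p = 0.0111, edgeR), and this call was lost without double-knockout 2. Zbtb16, also called PLZF, was higher by 0.69, at the WT level in the double knockout, a call lost in 4 of the 9 leave-one-out fits.

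Of 32 meiotic genes, 6 were higher and 1 lower (Rec114, -0.81), with a median of 0.42, beside 0.56 against WT. That is 21.9% called, near the 19.14% of all genes. The number higher was 2 without double-knockout 3 and 3 without replicate 1 or 2 of the labelled single knockout, and Rec114 lost its call in 8 of the 9 leave-one-out fits. Stag3, a meiotic cohesin subunit, measured 98.9, 99.9 and 131 CPM in the double knockout, 75.6, 77 and 80.5 CPM in the labelled single knockout and 74.3, 73.7 and 73 CPM in WT. The log2 fold change of Stag3 was 0.50 (SE 0.13; adjusted p = 0.013, edgeR), and against WT it was 0.57 (95% interval 0.29 to 0.85). It was not called against WT (edgeR adjusted p = 0.12), and its call between the knockout groups was lost without double-knockout 3, the highest library. Sycp2, a lateral element protein of the synaptonemal complex, measured 45, 60.5 and 68.2 CPM in the double knockout, 32.2, 39.9 and 39.8 CPM in the labelled single knockout and 30.8, 33.3 and 31.7 CPM in WT, a log2 fold change of 0.63 that was not called without double-knockout 3 or replicate 1 of the labelled single knockout. Tex15, needed for meiotic recombination and transposon silencing, measured 72.1, 132 and 87.4 CPM in the double knockout, 63.9, 38.9 and 53.5 CPM in the labelled single knockout and 58.6, 68.8 and 47.2 CPM in WT (0.90), with the top value in double-knockout 2. Prdm9, the enzyme that marks recombination sites, measured 7.08, 7.9 and 10.9 CPM in the double knockout, 3.88, 4.09 and 3.83 CPM in the labelled single knockout and 6.32, 7.1 and 5.38 CPM in WT. It was higher by 1.12, overlapped WT in the double knockout, and lost its call in 4 of the 9 leave-one-out fits. Sycp1, a transverse filament protein of the synaptonemal complex, measured 62.2, 85.5 and 88.3 CPM in the double knockout, 54.6, 59.3 and 55.8 CPM in the labelled single knockout and 29.9, 43.4 and 37 CPM in WT. The 3 groups did not overlap and their order was WT, labelled single knockout, double knockout. Between the knockout groups Sycp1 changed by 0.48 on the log2 scale (SE 0.16; adjusted p = 0.0436, edgeR), which was lost in 6 of the 9 fits that left out a library.

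Of 22 piRNA pathway genes, which protect the germline from transposons, 5 were higher, or 22.7%, near the 19.14% called of all genes, with a median of 0.35 (3 higher without double-knockout 2 and 2 without replicate 2 of the labelled single knockout). Fkbp6, a co-chaperone of piRNA loading, measured 36.4, 33.8 and 38.1 CPM in the double knockout, 21.8, 19.2 and 20.7 CPM in the labelled single knockout and 18.4, 20.1 and 17.9 CPM in WT. For Fkbp6 the log2 fold change was 0.81 (SE 0.18; adjusted p = 0.00303, edgeR), and against WT it was 0.94 (0.57 to 1.31), and its call held whichever library was left out. Tdrkh (0.73) was the member at the WT level, and its call was lost in 7 of the 9 leave-one-out fits. Mael, Ddx4, Tex15, Tex11 and Dnmt3a are among the called genes that belong to more than 1 list, and each list counts them. Tex11 is counted with both the meiotic and the X-linked genes. Dnmt3a is counted with both differentiating spermatogonia and DNA methylation. Of 16 X-linked germ-cell genes 3 were higher, namely the mRNA export factor Nxf2 at 71.9, 66.8 and 50.3 CPM in the double knockout, 42.1, 26.8 and 43 CPM in the labelled single knockout and 39.6, 35.1 and 35.3 CPM in WT (0.75), the deubiquitinase Usp26 (0.79) and the meiotic gene Tex11 (0.82). All 3 had the labelled single knockout at the WT level. They are 18.8% of the list, about the share called of all genes, and without double-knockout 2 or replicate 2 of the labelled single knockout Usp26 and Tex11 lost their calls and 1 of the 16 was higher. Usp26 also lost its call without replicate 3 of the labelled single knockout, and without double-knockout 1 there were 5 higher.

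**Figure D4:**
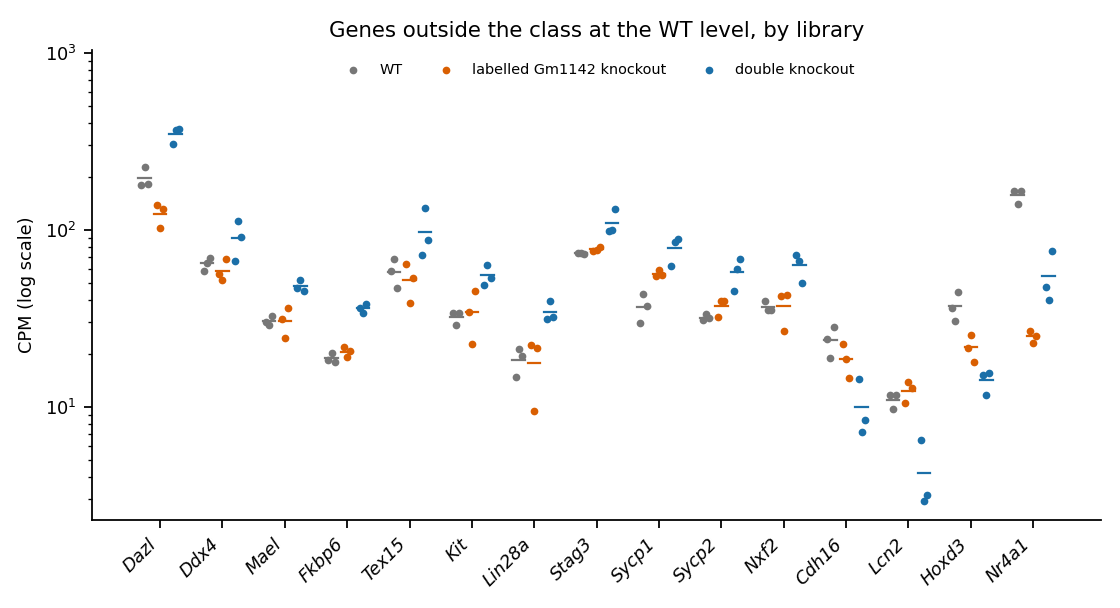
CPM on a log axis of 15 genes that were called between the knockout groups with the double knockout outside the class at the WT level, in each library, with a dash at each group mean. Dazl reached 305 to 370.3 CPM in the double knockout against 179 to 226 CPM in WT, and Hoxd3 fell from WT to the labelled single knockout to the double knockout.

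The other genes that the naming rule gave for the mirrored class belong to several cell types. Higher in the double knockout were the lysosomal trafficking gene Lyst, at 27, 27.3 and 27.6 CPM in the double knockout, 10.7, 16.6 and 11.3 CPM in the labelled single knockout and 17.4, 17.7 and 19.6 CPM in WT (1.10), Mef2b (1.18), Cdkn2aip (1.08), Tmem170b (1.06), the kinase gene Wnk3 (1.06) and the chaperone regulator Bag4 (1.04). Wnk3 measured 29.3, 64.5 and 34.2 CPM in the double knockout, 21.6, 17.6 and 22.8 CPM in the labelled single knockout and 23, 23.1 and 22.2 CPM in WT, so that double-knockout 2 carried most of the rise, and without that library Wnk3 and Tmem170b lost their call. The call of Mef2b was lost without double-knockout 3.

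Lower in the double knockout were Spink12, of a family of protease inhibitor genes, at 24.5, 11.7 and 29.9 CPM in the double knockout, 53.8, 90.0 and 57.9 CPM in the labelled single knockout and 55.7, 31.5 and 72.4 CPM in WT (-1.64), and Lcn2, which encodes an iron-sequestering lipocalin. Lcn2 measured 6.51, 2.93 and 3.17 CPM in the double knockout, 10.5, 13.8 and 12.8 CPM in the labelled single knockout and 11.7, 9.66 and 11.6 CPM in WT. Lcn2 had a log2 fold change of -1.57 (SE 0.33; adjusted p = 0.00206, edgeR), and against WT it was -1.40 (95% interval -2.08 to -0.72). Against WT it was not called (edgeR adjusted p = 0.119). The nuclear receptor gene Nr2f1 (-1.31), Tmem150c (-1.27), the BMP-responsive inhibitor Id3 (-1.21) and the actin regulator Coro2b (-1.20) were lower too, and all 6 kept their calls whichever library was left out. Coro2b measured 21.8, 16.4 and 14.7 CPM in the double knockout and 43.3, 41.4 and 36.9 CPM in the labelled single knockout. In WT it measured 31, 19.5 and 31.2 CPM, so the double knockout overlapped WT and the labelled single knockout did not. Nor did the labelled single knockout of Tmem150c or Lyst overlap WT, as the mirrored rule bounds the difference at 2-fold without requiring overlap.

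Of 18 genes of duct epithelium and epididymis, Cdh16, a kidney and duct cadherin, was the 1 called, at 14.4, 7.22 and 8.38 CPM in the double knockout, 22.7, 18.7 and 14.5 CPM in the labelled single knockout and 24.1, 18.9 and 28.2 CPM in WT (-0.92), and its call was lost without any of 3 libraries (replicate 1 of the labelled single knockout, double-knockout 2 and double-knockout 3). The 1 called gene was 5.56% of the list, below the 19.14% called of all genes. The list had a median of -0.45 against the labelled single knockout and -0.56 against WT. Its summed level was 134 to 190.3 CPM in the double knockout, 206 to 227 CPM in the labelled single knockout and 221 to 283 CPM in WT, so the double-knockout libraries lay below all others; 1 member was at 0 in all 9 libraries. The part of duct tissue in the results for other genes was not tested.

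Vascular genes gave 2 lower and 1 higher of 16, or 18.8%, about the share called of all genes, with a median of -0.37. Egfl7 measured 40.4, 36 and 51.4 CPM in the double knockout, 72.6, 65.5 and 69.2 CPM in the labelled single knockout and 50.9, 51.2 and 68.9 CPM in WT (-0.71), Vwf was lower (-1.24) and Kdr, the VEGF receptor, higher (0.88). The call of Vwf was lost without replicate 1 of the labelled single knockout, double-knockout 1 or double-knockout 2, and that of Kdr without double-knockout 1 or replicate 2 of the labelled single knockout. Of 21 stromal genes, fibronectin (Fn1, -0.49) was the 1 lower, with 5 lower without replicate 2 of the labelled single knockout and 4 without double-knockout 1. That 1 called gene was 4.76% of the list, below the 19.14% of all genes. Among 14 peritubular and smooth-muscle genes Smtn (-0.88) and Tpm1 (-0.41) were lower and Lmod1 (1.03) higher (21.4% called, near the share of all genes). Lmod1 lost its call in 4 of the 9 leave-one-out fits, with the replicate block and with the compared groups fitted alone, and Tpm1 without double-knockout 1 or 2. Of 15 macrophage genes C1qc (1.14) was higher (6.67% called, below the share of all genes), a call that 6 of the 9 leave-one-out fits lost. Both alpha-globin genes of red cells, Hba-a1 (-0.83) and Hba-a2 (-1.10), were lower, and the call of Hba-a1 was lost without double-knockout 2. They were the 2 called of 7 red-cell genes tested (28.6%).

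**Figure D5:**
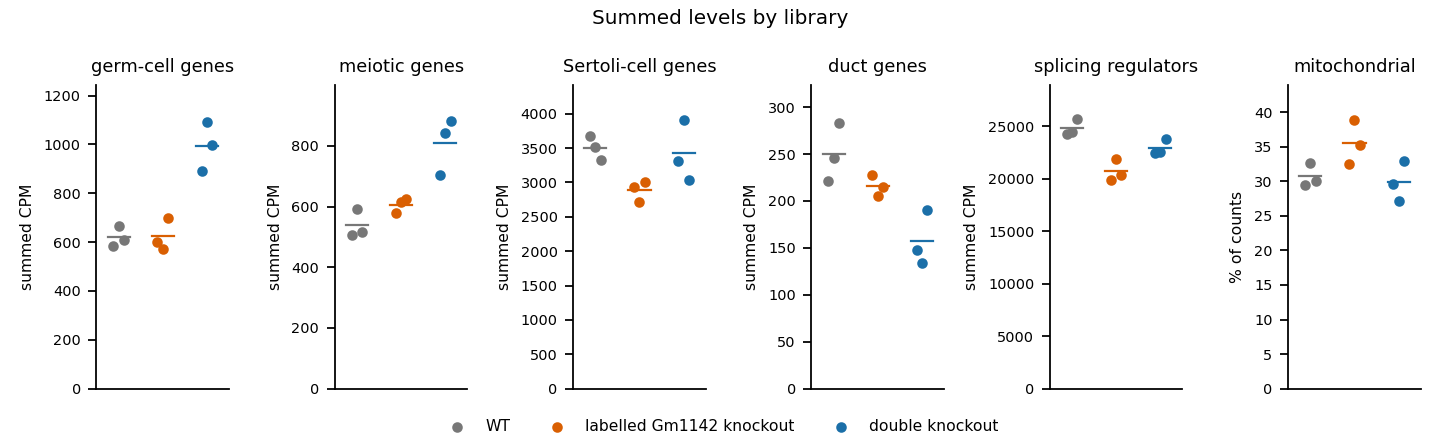
Summed CPM of 5 gene lists, and the mitochondrially encoded share of counts in percent, for each library, with a dash at each group mean. The germ-cell sum, which includes Dazl, is 892 to 1092 in the double knockout and at most 698 in the other groups. The sum of Sertoli-cell genes is 3315, 3912 and 3041 in double-knockout 1, 2 and 3. In WT that sum is 3324 to 3670.4, so no double-knockout library lies within the WT range.

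The 9 genes called both between the knockout groups and between the double knockout and WT were Gm1142, Gm4779, Dazl, Fkbp6, Sycp1, Nr4a1, Hoxd3, Odf3b and Gm47283. Nr4a1, an orphan nuclear receptor induced within minutes by many signals, measured 47.5, 39.9 and 76.3 CPM in the double knockout, 27, 23 and 25.1 CPM in the labelled single knockout and 165, 139.6 and 166 CPM in WT. The double knockout lay between the other 2 groups and overlapped neither. This gave Nr4a1 a log2 fold change of 1.10 (SE 0.20; adjusted p = 0.000497, edgeR), and against WT it was -1.54 (-1.92 to -1.16). Of the 28 immediate early genes, 3 were higher and 3 lower (21.4% called, near the 19.14% of all genes), with Ccn2 (1.15) and Klf6 (1.11) in the direction of Nr4a1 and Fos, Zfp36 (-1.22) and Ccn1 (-0.93) opposite. Fos measured 0.383, 1.58 and 1.59 CPM in the double knockout, 24.7, 7.41 and 2.98 CPM in the labelled single knockout and 3.25, 1.97 and 1.94 CPM in WT, and its high value was in replicate 1 of the labelled single knockout. Without that library 5 of the list were higher and 1 lower, and without double-knockout 2 there were 2 and 1. Klf6 lost its call without double-knockout 2, Zfp36 in 3 and Ccn1 in 5 of the 9 leave-one-out fits.

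Hoxd3, a homeobox gene of body patterning, measured 15.1, 11.7 and 15.6 CPM in the double knockout, 21.6, 25.6 and 17.9 CPM in the labelled single knockout and 36, 30.7 and 44.4 CPM in WT. In Hoxd3 the double knockout differed from the labelled single knockout by -0.62 on the log2 scale (SE 0.22; adjusted p = 0.0476, edgeR), a call lost in 7 of the 9 fits that left out a library, and the gene overlaps others on both strands. Odf3b and Gm47283 fall outside the naming rule and were named after their values were seen. Odf3b on chromosome 15 had 0 counts in each double-knockout library, 14, 32 and 6 in the labelled single knockout and 12, 26 and 8 in WT. The labelled single knockout was at least 25-fold above the double knockout (edgeR adjusted p = 0.000593), and against WT the adjusted p was 0.0465. Gm47283, a Y-linked gene, had 21.1 ± 3.41 CPM in WT, 72.7 ± 19.2 CPM in the labelled single knockout and 49.99 ± 6.48 CPM in the double knockout (SD, n = 3 each). Its log2 fold change between the knockout groups was -0.55, and near-identical copies make its counts uncertain.

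Chromosome, length and base composition of the called genes were examined as properties that the rule did not use. On the X chromosome, where both targets lie, 120 of 603 genes were called, or 19.9%, close to the 19.14% of all genes. Of these 80 were higher and 40 lower in the double knockout, so that 66.7% were higher, beside 47.4% of all called genes. Excluding M and Y, which hold 14 and 11 tested genes, the next highest share was 55.8%, on chromosome 11. Of the 80, 56 had the double knockout at the WT level, beside 1141 of the 1565 genes called as higher on any chromosome. The median length of the longest transcript was 3716 bases among genes higher in the double knockout, 2997 among those lower and 3098 among all tested, and the median GC content was 47.6% in both directions beside 49.1% in all. Removal of each library's trend on GC and length left 3341 genes called, of which 3038 were among the 3301.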

How the data were processed

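Testis RNA of 9 mouse libraries was compared as 3 groups of 3, assigned by title. The authors deposited a table of raw read counts per gene. Per the submitters' processing notes, cutadapt, Bowtie2, STAR and featureCounts were used with mm39. Versions, the strand setting and how multi-mapping reads were counted are not given in the sources used here, which affects overlapping genes and near-identical copies. Of 56691 genes, 52073 were paired with a symbol; the rest held 0.411% to 0.510% of counts.

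The group-based default filter of edgeR, with a count minimum of 10 and a total of 15, kept 17251 genes. A quasi-likelihood model (edgeR 4.0.16, R 4.3.3) with TMM scaling and 1 term per group was fitted to all 9 libraries, with Benjamini-Hochberg adjustment over all genes tested. CPM values use the scaled library sizes, and a standard error is the fold change divided by the square root of F. Intervals use the moderated degrees of freedom. Length and GC content come from GENCODE on GRCm38 and were known for 97.4% of genes tested.

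Members and the 32 gene lists were chosen with earlier results of these data known, and lists are described without a test. Named were the 2 targets, and then genes at 10 CPM or more in the higher knockout group and without overlap between these groups. These were the 10 largest increases and decreases at the WT level, the 6 most abundant each way there with at least a 1.5-fold change, up to 6 each way of the mirrored class and of genes called in both comparisons, and up to 4 called members of each list by p-value. Predicted-gene symbols, small RNAs and mitochondrially encoded genes entered by the list rule alone. Other called list members are printed with their fold change, and a few genes given by these rules are not reported here. Alternatives were other size factors, other filters, DESeq2 1.42.0, limma-voom (limma 3.58.1), a replicate block, a fit of the compared groups alone, a fold minimum, removal of mitochondrial genes, removal of GC and length trends, other rules for the WT level, and leaving out libraries.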

Additional observations from a re-analysis of the deposited data

How the results depend on the processing

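Of 3301 called genes, other size factors, filters, DESeq2, limma-voom, removal of mitochondrial genes and removal of GC and length trends called 3282 to 3406, and 90.1% to 98.8% of the 3301 were among them; the compared groups fitted alone called 2644. With a log2 fold change of at least 1, 1128 genes were called, 554 with the double knockout and 32 with the labelled Gm1142 knockout at the WT level. Leaving out 1 library at a time gave 2128 to 3219 called genes, 1601 to 2412 with the double knockout at the WT level and 108 to 417 with the labelled Gm1142 knockout there. The lowest numbers called and in the mirrored class came without double-knockout 2, and the 417 came without double-knockout 3. Leaving out both double-knockout 2 and replicate 2 of the labelled Gm1142 knockout, chosen after seeing the data, gave 2004, 1556 and 101. With a bound of 1.5-fold in place of 2-fold the classes held 1575 and 127 genes. With the sole condition that a group was not called against WT, the mirrored class held 1074. The share of called genes higher in the double knockout was 43.5% with GC and length trends removed and 51.1% with no filter, beside 47.4%. Same-numbered libraries of the knockout groups did not deviate together (r of 0.04, -0.27 and 0 across genes). With 3 libraries per group these values cannot exclude a shared litter or batch. The fit with a replicate block called 2965 genes, with 2135 and 245 in the 2 classes. Of 147 named genes, 112 kept their call in each leave-one-out fit and 108 in each other fit, and no direction reversed in any fit. Among called genes in neither class and not called against WT, 551 had an interval of the double knockout against WT beyond 2-fold. Their median level was 4.60 CPM. Some called genes outside these 551, such as Lcn2 and Dazl, had such an interval too.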
